A study of Homo sapiens with 16 samples.

Results

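A549 and H2023, a pair of established human lung adenocarcinoma lines, were compared in their wild-type state in normal culture. The comparison took the 2 A549 and the 2 H2023 libraries that the labels give as wild type, grown for 3 days in normal culture, which are 4 of the 16 libraries of the series, and all 18227 genes that the deposited tables of both lines share. The other 12 libraries are wild-type cells of both lines after 7 days in stem-cell-enriched (oncosphere) culture, and ZC3H12A knockout cells of both lines in either culture. The knockout libraries come from 1 clone per line. None of the 4 libraries compared here carries the knockout, and nothing in the labels says that the 2 libraries of a line came from separate cultures, so the p-values measure only the spread between these libraries, which may be technical. Each line stands in its own deposited table, so line and table cannot be told apart. Levels are given as TPM, the usual length-corrected share that a gene takes of a library's transcripts, scaled within each library, which sets libraries of both tables on 1 scale.

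A549 is a widely used model of alveolar-type lung adenocarcinoma that is known to have lost KEAP1 and STK11 function. KEAP1 normally marks the transcription factor NRF2 for degradation, so cells without working KEAP1 keep their detoxifying and antioxidant genes high. Lung adenocarcinoma lines also differ in how much airway, gut or liver programme they express, in their interferon and NF-kB tone, and in the matrix they lay down, and the genes are described in that order of roles below. The gene lists and their members were chosen with earlier results of these data known. A lean of a list therefore describes its members and is not a test of a pathway.

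The libraries of a line resembled each other more than they resembled the other line. Across genes, which are not independent replicates, log2(TPM + 1) values correlated with r = 0.989 between the A549 libraries and r = 0.988 between the H2023 libraries, against 0.931 to 0.936 between lines. In the 4 libraries 13824 to 14380 genes were at 1 TPM or more, and mitochondrially encoded genes took 10.3% to 16% of the total. TPM keeps no read depth, so the depth of each library is unknown. The deposited mean normalized counts over the 4 wild-type and knockout libraries of a table in normal culture sum to 20540195 for A549 and 22656596 for H2023. The epithelial markers EPCAM, KRT8, KRT18, KRT19 and CDH1 summed to 7417 to 7626 TPM in A549 and 5887 to 7299 TPM in H2023. Of the markers of other cell types, PECAM1 of endothelium summed to at most 0.1 TPM in A549 and 1.33 TPM in H2023, TP63 of basal cells stayed under 1 TPM in all 4 libraries, and the fibroblast genes measured (COL1A1, PDGFRB and LUM) summed to at most 3.36 TPM in A549 and 9.07 TPM in H2023. The leukocyte genes measured (CD68 and LYZ, with CD68, a lysosomal protein, in many cell types) summed to 37.3 to 45.9 TPM in A549 and 34.6 to 39.4 TPM in H2023, the alveolar type 2 genes measured (NAPSA, ABCA3 and LAMP3) to 17.3 to 19.7 and 24.3 to 26.4 TPM, the neuroendocrine genes (CHGA and SYP) to 6.48 to 9.26 and 4.20 to 4.73 TPM, and the ciliated cell genes (TPPP3 and PIFO) to 0.35 to 0.83 and 5.39 to 5.88 TPM. Their part in the differences was not tested. Of the 18227 genes, 77 were listed at 0 in all 8 H2023 libraries and 1 in all 8 A549 libraries. How the authors chose the genes to list is not given in the sources used here. The alveolar genes NKX2-1, SFTPB, SFTPC and SLC34A2 and the basal keratins KRT5 and KRT14 are not analysed here.

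Of the 18227 genes, 6259 (34.3%) differed between the lines at an adjusted p under 0.05 (limma on log2(TPM + 1), Benjamini-Hochberg over all genes). Higher in H2023 were 4004 genes (22%) and higher in A549 2255 genes (12.4%). The 2 libraries of each line did not overlap for 70.7% of all genes. A difference of at least 1 on the log2 scale was found for 1784 of the genes called higher in H2023 and 876 of those called higher in A549, and one of at least 2 for 381 and 186. Tested against a 2-fold difference instead of none, 387 genes (2.12%) passed, 257 of them higher in H2023. The share called grew with the level, from 15.9% of genes under 1 TPM to 44.8% of genes over 100 TPM, and was 38% among protein-coding genes against 21.6% among antisense and long intergenic RNAs. The balance of directions depends on the scale: the median difference over all genes was 0.12 on the log2 scale, and 64% of calls were higher in H2023, against 53.8% (3296 higher in H2023, 2830 higher in A549) once the median of genes of at least 10 TPM was set to 0 and 49.9% (3007 and 3023) after quantile normalization. Leaving out a library leaves 1 in that line, which is then assumed to vary like the other line, whose 2 libraries alone give the spread. Without A549 library 1 or without A549 library 2, limma called 0 genes, with 6391 and 6475 at an unadjusted p under 0.05, and without H2023 library 1 or 2 it called 2244 and 1911.

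The largest single difference was in CES1, which encodes a liver and lung carboxylesterase that cleaves esters of drugs and lipids (ENSG00000198848, minus strand of chromosome 16, chr16:55802851-55833337 in GRCh38). CES1 measured 0.26 and 0.28 TPM in the A549 libraries and 1443 and 1939 TPM in the H2023 libraries, a log2 difference of 10.36 ± 0.16 (SE; limma adjusted p = 0.000322). H2023 transcripts of this single gene thus took over 1000 TPM in each library, while A549 stayed under 1 TPM. HGF, the secreted ligand of the receptor MET, measured 0.03 and 0.32 TPM in A549 and 83.3 and 45.6 TPM in H2023 (5.75 ± 0.34, limma adjusted p = 0.00217). Transcripts of MET itself were at 109 and 68.7 TPM in A549 and 144 and 129 TPM in H2023, a difference that did not pass the test (0.65 ± 0.23, limma adjusted p = 0.087). DIO2, the deiodinase that activates thyroid hormone, measured 0.40 and 1.56 TPM in A549 and 96.5 and 102 TPM in H2023. HPD, an enzyme of tyrosine breakdown, measured 0.99 and 1.08 TPM in A549 and 66.2 and 108 TPM in H2023. TIMP3, a matrix-bound inhibitor of metalloproteinases, was listed at 0 and 0.07 TPM in A549 and measured 41.7 and 32.8 TPM in H2023 (5.20 ± 0.21, limma adjusted p = 0.00139). The 12 genes with the largest differences toward H2023, among those with at least 10 TPM in both of its libraries, also hold MAL2, KRT19, MDK, CRYBG1, ANXA10, GSTM3 and CPS1, with log2 differences between 4.76 and 5.27. None of the 12 had overlapping libraries, which their choice by the largest differences nearly fixes and which held for 70.7% of all genes.

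Toward A549, the largest difference was in FXYD2, a regulatory subunit of the sodium pump, at 510 and 429 TPM in A549 and 0.52 and 4.50 TPM in H2023 (-7.34 ± 0.60, limma adjusted p = 0.0032). RAB34, a small GTPase of Golgi traffic and cilia, measured 156 and 141 TPM in A549 and 0.84 and 0.13 TPM in H2023. Several A549 genes were listed at or next to 0 in H2023. SNRPN, an imprinted gene of chromosome 15 that encodes a splicing protein (ENSG00000128739, chr15:24823637-24978723), measured 71.6 and 72.8 TPM in A549 and was listed at 0 in both H2023 libraries (-6.19 ± 0.16, limma adjusted p = 0.00106). SNHG14, the long noncoding transcript that begins at its 3' end, measured 34.7 and 36.7 TPM in A549 and 0 and 0.01 TPM in H2023. Over the 8 libraries of each line, SNRPN ran from 71.6 to 161 TPM in A549 and was listed at 0 in all 8 of H2023. NTRK3, a neurotrophin receptor kinase, measured 40.6 and 52.9 TPM in A549 and was listed at 0 in H2023. HFE, which tunes iron uptake, measured 28.9 and 31.1 TPM in A549 and was likewise listed at 0 in both H2023 libraries. EBP, an isomerase of cholesterol synthesis encoded on chromosome X, measured 118 and 99.6 TPM in A549 and 2.52 and 2.71 TPM in H2023 (-4.92 ± 0.14, limma adjusted p = 0.00114). The other members of the A549 group of 12 were OLFML3, CCL20, ARSL, UPK1B and ZNF655, with log2 differences from -5.46 to -6.57.

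**Figure D1:**
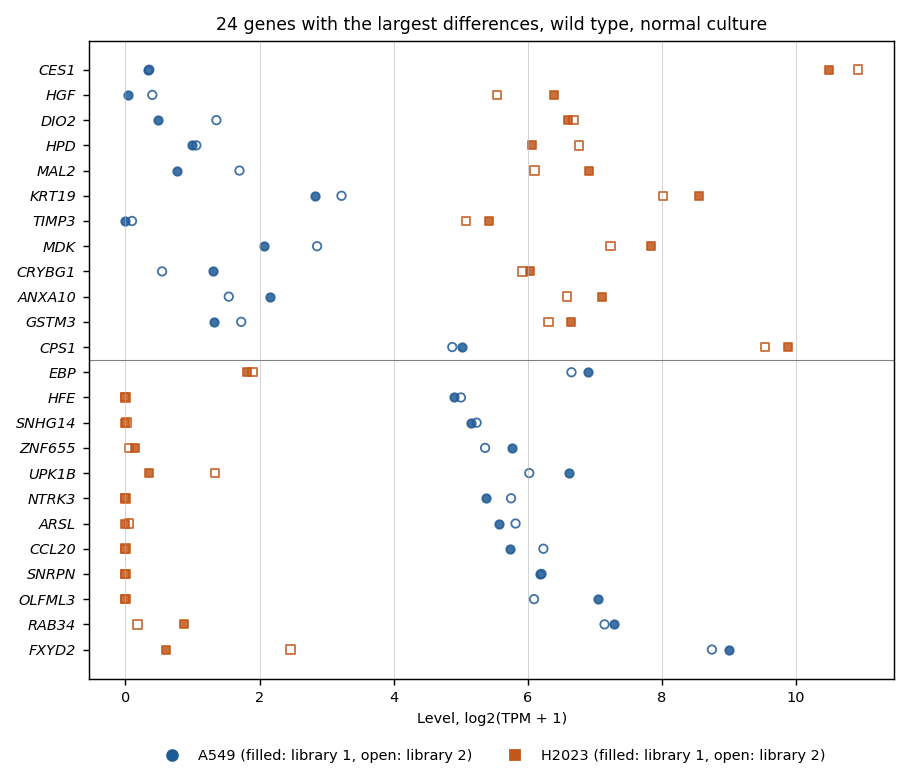
Levels of the 24 genes with the largest differences in wild-type cells in normal culture, as log2(TPM + 1) on the horizontal axis, with 1 point per library. For each of the 12 upper genes both H2023 libraries lie to the right of both A549 libraries, CES1 farthest, and for the 12 lower genes the order is turned. The genes were picked by the size of this difference.

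Both lines expressed the simple-epithelial keratins at high levels, and they differed in which further epithelial genes they carried. KRT8 measured 3626 and 3569 TPM in A549 and 4190 and 3374 TPM in H2023, libraries that overlap. KRT18, its partner, was lower in H2023 at 2674 and 2204 TPM against 3749 and 3995 TPM in A549 (-0.67 ± 0.17, limma adjusted p = 0.0376). KRT19, a keratin of ductal and glandular epithelia, measured 6.11 and 8.33 TPM in A549 and 374 and 258 TPM in H2023 (5.26 ± 0.23, limma adjusted p = 0.00148). EPCAM, an epithelial adhesion molecule, was at 1.24 and 1.98 TPM in A549 and 20.3 and 17.8 TPM in H2023. SPINT1, an inhibitor of cell-surface proteases, was listed at 0 and 0.36 TPM in A549 and measured 12.1 and 13.7 TPM in H2023, and CLDN7, a tight-junction claudin, rose from 0.87 and 0.93 TPM in A549 to 6.17 and 8.79 TPM in H2023. DSP, the desmosomal plaque protein, went the other way, with 14.6 and 15.5 TPM in A549 and 6.94 and 7.03 TPM in H2023. Of 22 measured epithelial adhesion genes, 7 were called higher in H2023 and 4 higher in A549 (median 0.24), and CDH1, encoding E-cadherin, was not called (34.7 and 52.1 TPM in A549, 40.2 and 32.6 TPM in H2023). Of 24 mesenchymal genes, 7 were higher in H2023 and 2 higher in A549 (median 0.31). Together these were 37.5% of the list, near the 34.3% of all genes. Setting the median of genes of at least 10 TPM to 0, or quantile normalization, gave 5 and 3, so the list as a whole shows little lean. H2023 held more CDH2, encoding N-cadherin (6.96 and 6.43 against 15.7 and 15.8 TPM), more SNAI2, a transcription factor that represses epithelial genes (0.52 and 0.53 against 6.26 and 3.79 TPM), and more of the gelatinase gene MMP2 (3.91 and 3.03 against 44.9 and 46.8 TPM, 3.40 ± 0.16, limma adjusted p = 0.00153). VIM, the mesenchymal intermediate filament, was not called, at 798 and 634 TPM in A549 and 564 and 628 TPM in H2023.

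Endoderm, gut and airway genes were called in both directions. Of 19 transcription factors of endodermal tissues, 5 were called higher in each line (median 0.09). HNF4A, a master regulator of liver and gut genes, was at 9.99 and 15.5 TPM in A549 and 2.94 and 0.80 TPM in H2023 (-2.34 ± 0.44, limma adjusted p = 0.0167), and GATA4 was at 1.56 and 1.39 TPM in A549 and listed at 0 in both H2023 libraries. HNF4G, the close relative of HNF4A, was at 4.81 and 4.10 TPM in A549 and 17.8 and 11.5 TPM in H2023 (1.49 ± 0.25, limma adjusted p = 0.013). CDX2, the intestinal homeobox factor, was at 0.05 and 0.04 TPM in A549 and 1.30 and 3.37 TPM in H2023. The 19 liver and gut proteins measured were split likewise, 5 higher in H2023 and 3 higher in A549, 42.1% of the list beside 34.3% of all genes. CPS1, the urea-cycle enzyme, measured 31.6 and 28.3 TPM in A549 and 940 and 743 TPM in H2023, and CDH17, an intestinal cadherin, 2.70 and 5.68 TPM in A549 and 124 and 134 TPM in H2023. APOH, a plasma lipoprotein component, went to A549, at 17.4 and 17.9 against 1.31 and 1.04 TPM. FGA, a fibrinogen chain, was not called, and its A549 libraries lay far apart: it measured 29.2 and 189 TPM in A549 and 232 and 345 TPM in H2023. Of 13 airway genes, 6 were higher in H2023 and 2 higher in A549 (median 0.54), and of 16 mucins and CEACAM adhesion genes 4 and 1 (median 0.30). The counts were the same under every scaling tried. They make up 61.5% of the airway genes and 31.2% of the mucins and CEACAMs, the latter near the 34.3% of all genes. AGR2, a chaperone of mucus-secreting cells, measured 249 and 295 TPM in A549 and 1322 and 1028 TPM in H2023 (2.10 ± 0.17, limma adjusted p = 0.00309). MUC5B, a gel-forming airway mucin, was higher in A549 at 91.0 and 224 TPM against 5.86 and 7.76 TPM in H2023 (-4.21 ± 0.43, limma adjusted p = 0.00468), whereas the membrane mucins MUC1 and MUC13 were higher in H2023 by 1.98 ± 0.21 and 2.23 ± 0.33. NAPSA, an aspartic protease of alveolar type 2 cells, was at 1.09 and 1.14 TPM in A549 and 1.37 and 1.53 TPM in H2023 and was not called.

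The listed genes of the NRF2 pathway were expressed strongly in both lines and more of them in H2023. Of 37 measured members, 17 were called higher in H2023 and 2 higher in A549, with a median log2 difference of 0.62 beside 0.12 over all genes, and the count toward H2023 stayed between 16 and 18 under the other scalings. NFE2L2, which encodes NRF2 itself, measured 54.4 and 55.6 TPM in A549 and 111 and 118 TPM in H2023 (1.04 ± 0.09, limma adjusted p = 0.00365), and KEAP1, its inhibitor, 62.0 and 51.7 TPM in A549 and 101 and 101 TPM in H2023. AKR1C1, an aldo-keto reductase that shares long stretches with its neighbours AKR1C2 and AKR1C3 so that reads may be split among them, measured 371 and 427 TPM in A549 and 1822 and 2460 TPM in H2023 (2.41 ± 0.18, limma adjusted p = 0.00289). CYP4F11, a fatty acid hydroxylase, was at 7.90 and 12.7 TPM in A549 and 94.7 and 91.7 TPM in H2023 (3.09 ± 0.22, limma adjusted p = 0.00267). GCLM, the modifier subunit of the enzyme that limits glutathione synthesis, measured 109 and 79.3 TPM in A549 and 149 and 162 TPM in H2023 (0.74 ± 0.17, limma adjusted p = 0.0286), and SLC7A11, the cystine importer that feeds that synthesis, was higher by 0.85 ± 0.13. NQO1, a quinone reductase and the usual reporter of NRF2, was high in all 4 libraries, at 2238 and 1926 TPM in A549 and 1975 and 1634 TPM in H2023, and was not called. PIR, an iron-binding nuclear protein, was lower in H2023 (-0.65 ± 0.11).

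NRF2 acts through the antioxidant response element, searched here as TGAC, any run of 3 bases and GCA on both strands of the 250 bases before each gene's start. This motif lies in 2.31% of the 12347 promoters of tested genes that the RefSeq table holds. The share was 2.37% for genes called higher in H2023 and 2.72% for genes called higher in A549. Only 26 of the 37 NRF2 genes had an entry, too few to give a share for the list, so the promoters of CYP4F11 and GCLM, called higher in H2023 and each with 1 match, are shown as examples with the match in capitals (GRCh38.p14, RefSeq, 5' to 3' on the gene's own strand). CYP4F11 lies on the minus strand at chr19:15934868-15935117 and GCLM on the minus strand at chr1:93909431-93909680. Both matches read on the strand opposite to the gene.
CYP4F11: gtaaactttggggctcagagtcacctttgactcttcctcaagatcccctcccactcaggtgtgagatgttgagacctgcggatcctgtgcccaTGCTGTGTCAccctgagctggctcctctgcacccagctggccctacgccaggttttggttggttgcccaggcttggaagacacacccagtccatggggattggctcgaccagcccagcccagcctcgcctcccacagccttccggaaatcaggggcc
GCLM: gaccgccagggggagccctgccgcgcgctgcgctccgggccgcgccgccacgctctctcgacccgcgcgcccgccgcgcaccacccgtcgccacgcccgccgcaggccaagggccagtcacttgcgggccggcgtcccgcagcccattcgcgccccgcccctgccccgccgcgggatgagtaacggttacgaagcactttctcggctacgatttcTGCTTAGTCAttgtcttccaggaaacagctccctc
The CYP4F11 match stands far from the start and the GCLM match close to it. A match is a description of the letters and not a measured binding site.

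The listed aldehyde dehydrogenases, often used to mark tumour cells with stem-like behaviour, leaned to A549. Of 17 measured, 7 were called higher in A549 and 1, ALDH2, higher in H2023 (median -0.16). ALDH1A1, the retinal dehydrogenase that dye assays detect, measured 3790 and 4150 TPM in A549 and 1568 and 1293 TPM in H2023 (-1.48 ± 0.16, limma adjusted p = 0.00536). ALDH3A1 was at 842 and 721 TPM in A549 and 543 and 322 TPM in H2023 and missed the threshold (limma adjusted p = 0.0547). Of the 17 measured stem cell markers, 5 were higher in each line. The surface proteins CD44 (-0.64 ± 0.15) and CD24 (-0.67 ± 0.15) and the pluripotency factor SOX2, at 3.07 and 3.70 against 1.46 and 0.12 TPM, were higher in A549. KLF4, another pluripotency factor, was at 3.82 and 3.75 TPM in A549 and 14.6 and 16.3 TPM in H2023, and NES, an intermediate filament of progenitor cells, at 0.42 and 0.38 TPM in A549 and 9.62 and 10.99 TPM in H2023. The drug pump ABCG2 was not called (23.3 and 16.5 TPM in A549, 23.8 and 23.7 TPM in H2023). Of 25 genes of foreign-compound metabolism, 10 were higher in H2023 and 1, GSTP1, higher in A549 (median 0.58), and AHR, the receptor for aromatic hydrocarbons, was among the former (17.8 and 28.7 against 96.4 and 94.0 TPM).

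Of 21 measured tumour drivers and suppressors, 7 were called higher in H2023 and 3 higher in A549 (median 0.36). Together these were 47.6% of the list, beside 34.3% of all genes. Setting the median of genes of at least 10 TPM to 0 gave 4 and 3, and quantile normalization 5 and 3. The largest difference in the list was toward A549, in STK11, which encodes the energy-sensing kinase LKB1 (ENSG00000118046, plus strand of chromosome 19, chr19:1177558-1228435). It measured 33.9 and 31.9 TPM in A549 and 0.84 and 1.11 TPM in H2023 (-4.10 ± 0.18, limma adjusted p = 0.00148). In the other 6 libraries of each line it kept to 27.7 TPM or more in A549 and to 0.93 TPM or less in H2023. Transcript level says nothing of the protein's function, which A549 is known to lack. SMARCA4, the chromatin remodelling ATPase (8.86 and 10.6 against 8.56 and 8.43 TPM), was not called. HRAS and MAP2K1, which encodes the kinase MEK1, were lower in H2023, by -0.94 ± 0.11 and -1.09 ± 0.13. Of 27 measured p53 targets, 10 were called higher in A549 and 3 higher in H2023, with a median of -0.41. The 10 include DDB2 (54.5 and 50.8 against 18.4 and 14.4 TPM), which recognises DNA damage, the nuclease gene AEN (50.5 and 43.9 against 13.8 and 15.9 TPM) and FDXR, a mitochondrial reductase (30.3 and 23.6 against 8.23 and 9.41 TPM). The death receptor gene FAS and the kinase gene PLK2 were higher in H2023, and the usual reporters CDKN1A (42.9 and 25.8 against 12.8 and 43.2 TPM) and MDM2 (35.8 and 35.5 against 48.4 and 35.6 TPM) were not called, their H2023 libraries reaching into or over the A549 values.

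Of 23 measured receptor tyrosine kinases, 3 were called higher in H2023 and 5 higher in A549. They make up 34.8% of the list, near the 34.3% of all genes. EGFR (52.6 and 38.4 against 51.5 and 68.7 TPM) and ERBB2 (18.0 and 26.2 against 29.5 and 33.5 TPM) were not called. ERBB3, the kinase-poor partner of ERBB2, was higher in H2023, at 28.3 and 24.2 TPM against 4.19 and 8.64 TPM (1.94 ± 0.32, limma adjusted p = 0.0121). The fibroblast growth factor receptors FGFR1 (120 and 105 against 41.2 and 44.3 TPM) and FGFR4 (46.4 and 57.0 against 15.6 and 14.7 TPM) were higher in A549, beside NTRK3. The ligands divided as well: EGF was at 0.20 and 0.44 TPM in A549 and 5.46 and 4.89 TPM in H2023, and EREG, encoding epiregulin, at 76.8 and 41.7 TPM in A549 and 10.9 and 5.89 TPM in H2023 (-2.67 ± 0.39, limma adjusted p = 0.00876). CCND1, the cyclin that growth factor signals induce, was lower in H2023, at 63.1 and 72.1 TPM against 181 and 157 TPM (-1.31 ± 0.12, limma adjusted p = 0.00399).

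The listed genes of antigen presentation and of the interferon response leaned to H2023. HLA-C, which encodes a class I molecule that shows peptides to T cells, measured 41.7 and 39.3 TPM in A549 and 339 and 354 TPM in H2023 (3.07 ± 0.09, limma adjusted p = 0.00114). HLA-B was at 15.8 and 11.1 TPM in A549 and 111 and 109 TPM in H2023. These genes are near relatives and differ between people, so the authors' alignment to 1 reference may count them unevenly. ERAP2, a peptidase that trims peptides for class I, was at 1.05 and 1.44 TPM in A549 and 21 and 20.03 TPM in H2023. B2M, the common light chain, missed the threshold (658 and 511 against 799 and 800 TPM, 0.46 ± 0.15, limma adjusted p = 0.0702). Of the 26 antigen presentation genes, 10 were higher in H2023 and 2, HLA-DMB and ERAP1, higher in A549. CD274, encoding the checkpoint ligand PD-L1, was not called (0.98 and 1.20 against 0.31 and 1.47 TPM), and CD276, encoding B7-H3, was higher in H2023 (17.2 and 18.7 against 44.0 and 42.1 TPM).

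Of 34 interferon response genes, 17 were called higher in H2023 and 3 higher in A549 (median 0.69), and quantile normalization gave 14 and 3. IFITM3, a membrane protein that blocks virus entry, measured 29.3 and 31.8 TPM in A549 and 843 and 756 TPM in H2023 (4.67 ± 0.10, limma adjusted p = 0.000597). Its close relatives IFITM1 and IFITM2 share sequence with it, and IFITM1 was at 0.36 and 0.38 TPM in A549 and 1.43 and 0.27 TPM in H2023. BST2, encoding tetherin, which holds budding viruses at the cell surface, was listed at 0 and 0.16 TPM in A549 and measured 16.6 and 12.6 TPM in H2023. IFIH1, a sensor of double-stranded RNA, was at 1.03 and 1.24 TPM in A549 and 24 and 17.9 TPM in H2023 (3.35 ± 0.22, limma adjusted p = 0.00245). ISG15, a ubiquitin-like modifier, was at 5.94 and 6.09 TPM in A549 and 45.6 and 32.5 TPM in H2023 (2.49 ± 0.20, limma adjusted p = 0.00302), and MX1 (1.99 ± 0.26) and IFI6 (1.12 ± 0.29) were higher too. The exceptions were OAS1, a synthetase of the RNase L pathway (61.3 and 73.1 against 16.3 and 11.4 TPM), OAS3 (43.7 and 42.3 against 29.1 and 23.2 TPM) and USP18. IFI27, often the most responsive gene of this group, was low in all 4 libraries, between 1.00 and 1.56 TPM.

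Interferon-responsive promoters carry repeats of GAAA, searched here as a pair of GAAA with any 2 bases between, overlaps allowed, on both strands of the same 250 bases, a motif chosen after these results were known and present in 2.41% of the 12347 promoters of tested genes. The share was 2.37% for genes called higher in H2023 and 2.17% for genes called higher in A549. Of the 34 genes 23 had a promoter entry, again too few for a share over the list. The 3 promoters below belong to genes called higher in H2023 and show how the repeats lie, with the matches in capitals (GRCh38.p14, RefSeq, 5' to 3'): IFITM3 on the minus strand at chr11:320861-321110, ISG15 on the plus strand at chr1:1013247-1013496 and BST2 on the minus strand at chr19:17405631-17405880.
IFITM3: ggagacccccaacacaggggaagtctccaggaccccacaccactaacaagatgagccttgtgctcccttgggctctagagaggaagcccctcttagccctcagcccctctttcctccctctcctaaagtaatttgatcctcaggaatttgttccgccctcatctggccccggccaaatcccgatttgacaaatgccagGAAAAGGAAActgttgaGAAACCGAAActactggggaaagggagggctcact
ISG15: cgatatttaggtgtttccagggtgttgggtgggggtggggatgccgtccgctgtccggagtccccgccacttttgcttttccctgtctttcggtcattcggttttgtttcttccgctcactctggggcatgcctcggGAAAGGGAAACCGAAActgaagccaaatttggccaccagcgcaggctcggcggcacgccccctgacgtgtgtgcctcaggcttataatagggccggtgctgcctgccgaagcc
BST2: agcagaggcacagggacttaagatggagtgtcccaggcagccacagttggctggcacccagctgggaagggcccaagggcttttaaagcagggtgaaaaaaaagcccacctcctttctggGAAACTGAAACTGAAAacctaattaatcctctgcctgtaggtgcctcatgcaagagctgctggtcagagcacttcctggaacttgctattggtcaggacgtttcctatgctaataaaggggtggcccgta
Each holds 2 matches, apart in IFITM3 and overlapping in ISG15 and BST2.

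The listed genes of the NF-kB response and the listed chemokines leaned to A549. Of 21 NF-kB response genes, 11 were called higher in A549 and 4 higher in H2023 (median -0.64), and of 25 chemokines and cytokines 12 and 3 (median -0.56), with at least 11 and 12 toward A549 under every scaling tried. CXCL8, the neutrophil attractant interleukin 8, measured 109 and 124 TPM in A549 and 6.55 and 9.03 TPM in H2023 (-3.75 ± 0.17, limma adjusted p = 0.00153). CXCL1, a chemokine of the same receptor, measured 348 and 427 TPM in A549 and 33.8 and 31.7 TPM in H2023, and CXCL5, another, 955 and 1096 against 409 and 287 TPM. CCL20, which attracts dendritic cells and Th17 cells, was at 52.2 and 74.2 TPM in A549 and listed at 0 in both H2023 libraries. PTGS2, the inducible cyclooxygenase (79.8 and 115 against 11.99 and 7.55 TPM), LCN2, an iron-binding defence protein (77.7 and 143 against 13.5 and 14.4 TPM), and SAA1, an acute phase protein (16.4 and 20.7 against 2.16 and 3.50 TPM), followed the same order. NFKBIA, the inhibitor that NF-kB itself induces, was at 114 and 123 TPM in A549 and 74.9 and 76.4 TPM in H2023 (-0.64 ± 0.09, limma adjusted p = 0.00864). Against this trend, ICAM1, a leukocyte adhesion molecule, was at 10.9 and 9.25 TPM in A549 and 72.6 and 94.7 TPM in H2023 (2.93 ± 0.17, limma adjusted p = 0.00217), and CSF1, a macrophage growth factor, at 28.5 and 26.5 TPM in A549 and 145 and 134 TPM in H2023. The complement genes C3 (137 and 138 against 325 and 395 TPM) and C1S (23.1 and 27.0 against 468 and 403 TPM) were also higher in H2023.

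**Figure D2:**
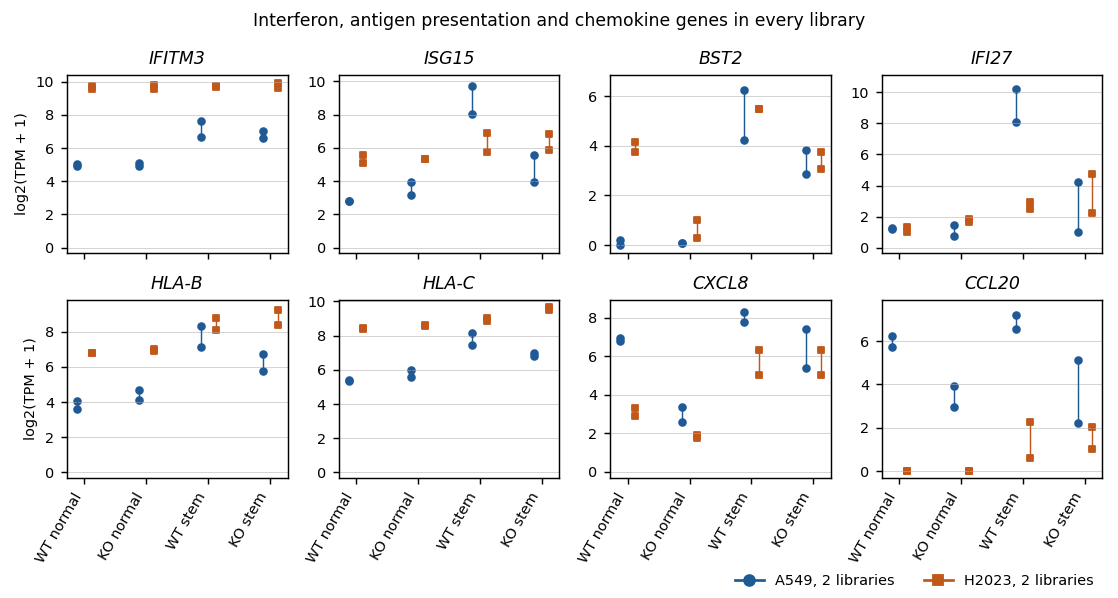
Levels of 8 genes of the interferon response, antigen presentation and chemokines, as log2(TPM + 1), in each of the 16 libraries (WT, wild type; KO, ZC3H12A knockout; normal and stem, normal and stem-cell-enriched culture; a line joins the 2 libraries of a group). IFITM3 is higher in H2023 in all 4 settings, while ISG15 and IFI27 are higher in A549 in wild-type cells in stem-cell-enriched culture.

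ZC3H12A, the gene knocked out elsewhere in the series, encodes the RNase Regnase-1, which degrades mRNAs of many inflammatory genes. Its transcript was not called between the wild-type lines, at 30.7 and 34.9 TPM in A549 and 26.8 and 29.9 TPM in H2023 (-0.21 ± 0.13, limma adjusted p = 0.263). Of 15 Regnase relatives and other mRNA decay factors, 6 were higher in H2023 and 1 higher in A549, 46.7% of the list beside 34.3% of all genes. The counts became 5 and 2 with the median of genes of at least 10 TPM set to 0, and 4 and 2 with quantile normalization. ZFP36, encoding tristetraprolin, which also destabilises cytokine mRNAs, was at 21.5 and 27.7 TPM in A549 and 60.2 and 53 TPM in H2023 (1.18 ± 0.16, limma adjusted p = 0.00744), and its relative ZFP36L2 was higher by 0.91 ± 0.16. MALT1, the protease that cleaves Regnase-1, was at 27.5 and 27.1 TPM in A549 and 17.4 and 13.6 TPM in H2023.

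The listed matrix genes leaned to H2023. Of 27 collagens and laminins, 14 were higher in H2023 and 4 higher in A549 (median 0.62), with 9 to 11 toward H2023 under the other scalings. LAMA4, a laminin chain of vessel and muscle basement membranes, was at 0.21 and 0.20 TPM in A549 and 21.1 and 12.4 TPM in H2023 (3.84 ± 0.29, limma adjusted p = 0.00289), and COL12A1, a fibril-associated collagen, at 9.01 and 11.95 TPM in A549 and 91.2 and 84.8 TPM in H2023. Of 20 metalloproteinases and their inhibitors, 9 were higher in H2023 and none was called higher in A549, although quantile normalization put 1 there. They include TIMP2 (24.9 and 23.8 against 120 and 140 TPM), TIMP3 and MMP2. The integrin chains ITGA4 (0.45 and 0.24 against 10.7 and 14.8 TPM) and ITGAV (52.3 and 38.1 against 121 and 148 TPM) were higher in H2023 as well.

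Among developmental signalling genes, the Notch receptors NOTCH3 (6.23 and 14.4 against 140 and 181 TPM, 3.92 ± 0.38, limma adjusted p = 0.00411) and NOTCH2 (10.98 and 9.64 against 41.1 and 45.1 TPM) and the ligand JAG2 (6.62 and 8.14 against 33.3 and 42.9 TPM) were higher in H2023. DKK1, a secreted Wnt inhibitor, was higher in A549, at 495 and 623 TPM against 118 and 101 TPM (-2.34 ± 0.15, limma adjusted p = 0.00245), as was BMP4, a bone morphogenetic protein, at 21.2 and 30.5 TPM against 1.61 and 0.56 TPM. HOX genes, which encode position along the body axis, were called in both directions. In the HOXA cluster, HOXA2 (1.43 and 2.02 against 0.58 and 0.14 TPM) and HOXA3 (12.7 and 13.6 against 5.89 and 2.44 TPM), at the end expressed nearest the head, were higher in A549. HOXA9 (0.65 and 0.61 against 12.4 and 12.2 TPM), HOXA10 (6.69 and 6.14 against 18.6 and 17.7 TPM), HOXA11 (0.18 and 0.03 against 7.59 and 5.29 TPM) and HOXA13 (0.91 and 0.64 against 2.30 and 1.90 TPM), at the other end, were higher in H2023. HOXA2, HOXA3, HOXA10 and HOXA13 were picked out after their values were seen. Other genes of the cluster are not shown here, so these values do not establish an order along it. Over the 29 HOX genes measured, 6 were higher in H2023 and 5 higher in A549, and quantile normalization turned this to 5 and 7. The share called, 37.9%, was near the 34.3% of all genes. HOXC4 and HOXB9 were higher in A549, by -1.73 ± 0.16 and -1.60 ± 0.30.

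Growth and energy genes were called in both directions. Of 34 genes of S phase and mitosis, 5 were higher in H2023 and 8 higher in A549 (median -0.05). They make up 38.2% of the list, near the 34.3% of all genes. The proliferation markers MKI67 (79.8 and 72.2 against 81.4 and 76.0 TPM) and TOP2A (199 and 197 against 200 and 182 TPM) were not called. PCNA, the sliding clamp of replication, was lower in H2023, at 229 and 249 TPM against 533 and 666 TPM. Of 34 nuclear genes of oxidative phosphorylation, 11 were higher in A549 and 5 higher in H2023 (median -0.20), among them NDUFA2 at 118 and 102 TPM in A549 and 57.0 and 51.5 TPM in H2023. In sugar uptake and its first step, SLC2A3, the high-affinity glucose transporter, was at 13.3 and 37.0 TPM in A549 and 1.80 and 1.96 TPM in H2023, while hexokinase gene HK1 was at 24.3 and 24.1 TPM in A549 and 206 and 191 TPM in H2023 (2.99 ± 0.09, limma adjusted p = 0.00114). In cholesterol synthesis, where 4 genes were higher in H2023 and 3 higher in A549 and quantile normalization turned this to 2 and 3, EBP stood out toward A549, and 17 of 24 genes were not called. The 29.2% called compares with 34.3% of all genes.

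**Figure D3:**
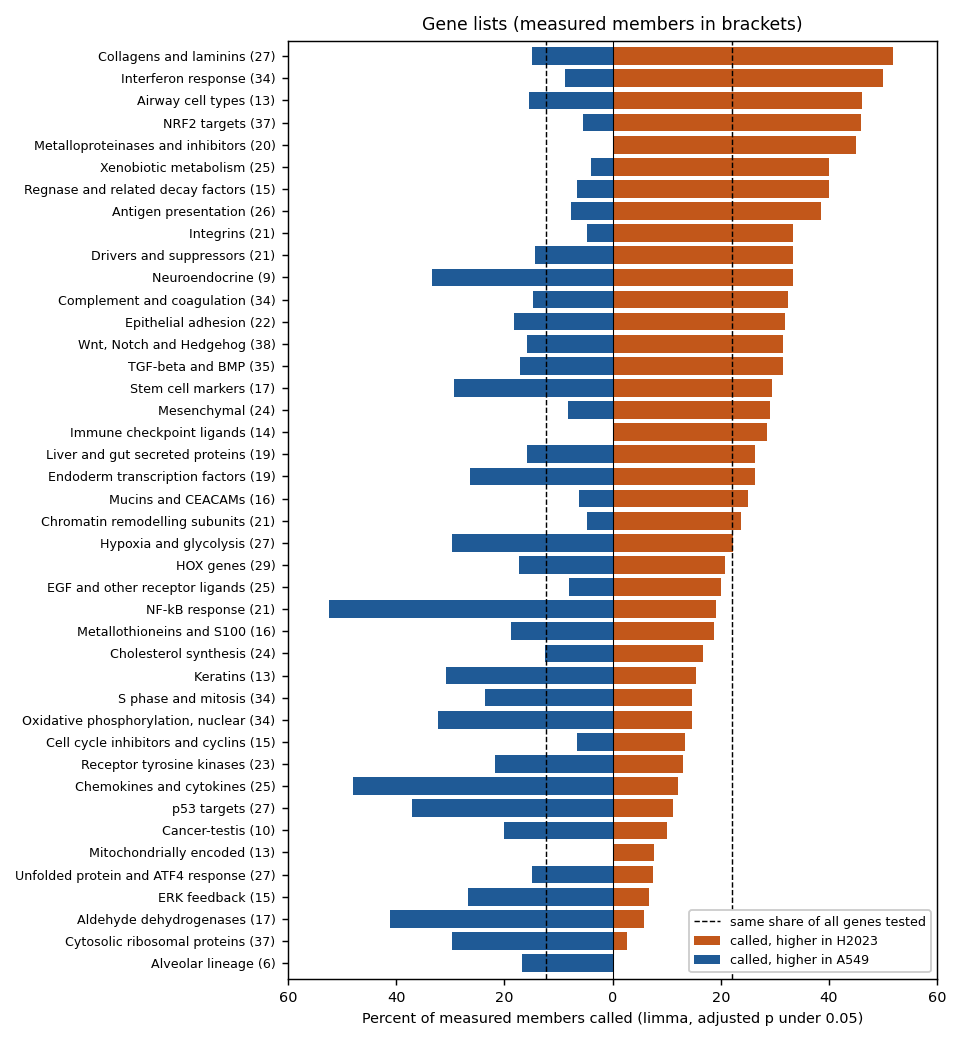
Share of the measured members of each of the 42 gene lists called higher in H2023 (right, orange) or higher in A549 (left, blue), in percent, with dashed lines at the shares of all 18227 genes (22% and 12.4%). Collagens and laminins and the interferon response reach farthest right, and the NF-kB response and chemokines and cytokines farthest left.

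The shares of genes called differed by chromosome. Over the 14378 genes with a position and a mean of at least 1 TPM, outside chromosome Y, the median log2 difference was 0.16, 25.3% were called higher in H2023 and 13.9% higher in A549. On chromosome X the median was -0.50, with 41.6% of 450 genes higher in A549 and 5.11% higher in H2023. Chromosomes 14 and 15 had medians of -0.30 and -0.29. On chromosome 21 the median was 0.60, with 49.4% of 174 genes higher in H2023 and 1.72% higher in A549, and chromosomes 9 and 1 followed with 0.55 and 0.51. There were 70 runs of 6 or more neighbouring genes of that level called in the same direction, 62 of them toward H2023. Of these runs, 22 lay on chromosome 1, all on the stretch up to position 121009291. Runs and chromosome shares were counted on the TPM scale alone, where 64% of all calls were higher in H2023. That share was 53.8% with the median of genes of at least 10 TPM set to 0 and 49.9% after quantile normalization. The runs and shares under these scalings were not tested. The longest run held 23 genes on chromosome 5 (chr5:141094578-142154443, GRCh38), from PCDHB2 to NDFIP1. It includes genes of the beta and gamma protocadherin clusters, cell adhesion molecules best known from neurons, of which PCDHGB4 differed most, at a mean of 0.73 TPM in A549 and 32.2 TPM in H2023 (4.26 ± 0.18). The gamma genes share their last exons, so reads there may be split among them, but the run goes on through genes outside the cluster such as the transcription factor gene TAF7 and the deacetylase gene HDAC3. In 7 runs with 58 genes, zinc finger genes are at least as many as the others, and 6 of the 70 runs lie on chromosome 19. DNA copy number was not measured here, and its part in these runs was not tested.

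**Figure D4:**
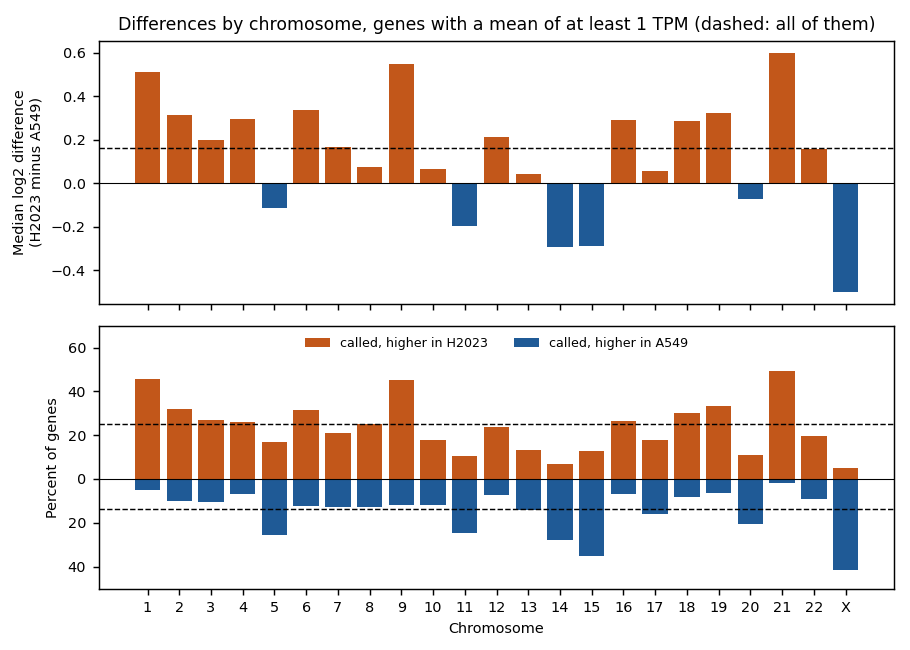
Median log2 difference (upper) and percent of genes called in each direction (lower) by chromosome, for genes with a mean of at least 1 TPM, with dashed lines at the values over all of them. Chromosomes 21, 9 and 1 stand above and chromosome X lowest.

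**Figure D5:**
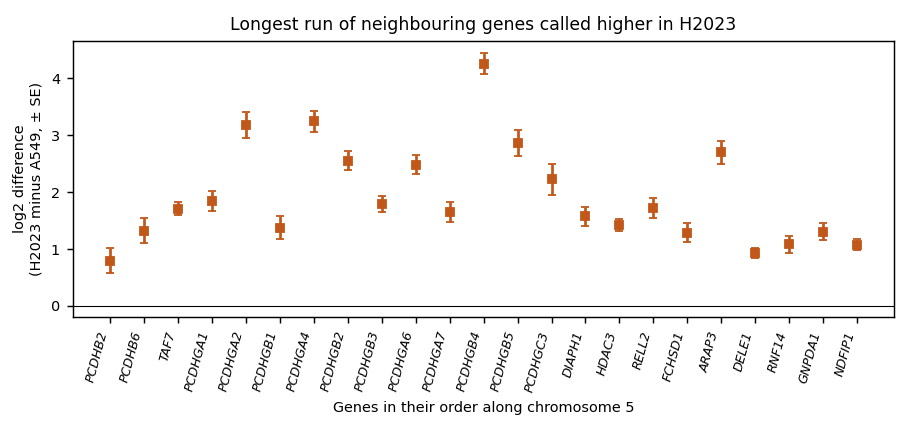
Log2 difference ± SE (vertical axis) of the 23 genes of the longest run, in their order along chromosome 5. All lie above 0, from PCDHB2 at 0.80 to PCDHGB4 at 4.26.

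Few measured genes were on in 1 line and off in the other. With on set at 1 TPM or more in both libraries and off at 0.1 TPM or less in both, 43 genes (0.236%) were on in H2023 and off in A549, and 68 (0.373%) on in A549 and off in H2023. The first group includes TIMP3, CDX2 and the interferon gene IFI44L, and the second OLFML3, SNRPN, CCL20, NTRK3, HFE and GATA4. With on set at 5 TPM the counts were 1 and 21, and over all 8 libraries of each line 1 and 23. The listed genes hold 77 at 0 in all 8 H2023 libraries and 1 at 0 in all 8 A549 libraries. How they were chosen is not known, so the counts of the lines cannot be set against each other.

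The differences were followed into the 12 libraries that the test did not use. Of the 6259 genes called, 78.8% did not overlap and kept their direction between the knockout libraries in normal culture, 77.5% between the wild-type libraries in stem-cell-enriched culture and 74% between the knockout libraries in that culture. Groups did not overlap in either direction for 73.8%, 72% and 72.6% of all genes in these comparisons, and 7.3%, 6.07% and 8.84% of the genes called were separated in the opposite direction. A count over all 8 libraries of a line takes in those on which the genes were called, so its shares are partly fixed by that choice. All 8 H2023 libraries lay above all 8 A549 libraries for 1374 of the 4004 genes called higher in H2023 (34.3%). The reverse held for 833 of the 2255 called higher in A549 (36.9%), against 14.8% of all genes in either direction. Among those that kept apart are CES1 (at most 1.19 TPM in A549 and at least 395 TPM in H2023), HGF, TIMP3, NOTCH3, STK11, RAB34 and EBP. CXCL8, CXCL1, HLA-B, ISG15 and MUC5B overlapped over the 8 libraries.

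Whether the line difference was another in stem-cell-enriched culture was tested over the 8 wild-type libraries. It was for 1327 genes (7.28%, limma interaction, adjusted p under 0.05), 341 with a higher and 986 with a lower H2023 minus A549 difference, and leaving out 1 library at a time left 176 (without A549 library 1 of normal culture) to 997 calls. Setting the median of genes of at least 10 TPM to 0 gave 536 higher and 801 lower. Of the 34 interferon response genes, 25 were called, all with a lower difference in stem-cell-enriched culture (median -2.92 beside -0.14 over all genes). In stem-cell-enriched culture ISG15 stood at 843 and 261 TPM in A549, far over its 5.94 and 6.09 TPM of normal culture, whereas H2023 had 53.5 and 116 TPM, so the line that was higher changed (interaction -5.05 ± 0.76, limma adjusted p = 0.0146). IFI27 reached 1162 and 264 TPM in A549 and 4.72 and 6.64 TPM in H2023 in that culture. The 6 genes of at least 10 TPM in a group with the largest interactions were CST1, IFITM1, TFF1, TCN1, IFI27 and DMBT1, all under 3 TPM in normal culture in both lines and high in A549 in stem-cell-enriched culture. TFF1, a secreted peptide of mucous epithelia, measured 136 and 105 TPM there in A549 and 2.23 and 1.39 TPM in H2023. In the opposite direction, 26 of 34 genes of S phase and mitosis and 16 of 24 of cholesterol synthesis had a higher difference in stem-cell-enriched culture, and none of either list a lower one. CDH17 kept to 124 and 134 TPM in normal and 81.2 and 72.7 TPM in stem-cell-enriched culture in H2023, and went from 2.70 and 5.68 to 81.7 and 61.9 TPM in A549, so that the lines overlapped there. Culture and days in culture changed together, so they cannot be told apart.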

How the data were processed

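Per the labels' protocols, a ReliaPrep kit served for RNA extraction and 1 µg went into each TruSeq stranded mRNA library. HISAT2, StringTie and GRCh38 are named in the submitters' processing notes, without versions. The authors deposited 4 tables, 1 per line and culture, with TPM per library and a mean normalized count over the 4 libraries of a table, a signal used here only to describe the tables. Of 18361 rows, 119 identifiers fill several rows, of which the first was kept, which leaves 18227 genes, joined by Ensembl identifier, and 18145 have a symbol in the reference names. Positions come from GENCODE 29 (GRCh38) and promoters from the RefSeq table (GRCh38.p14).

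limma 3.58.1 (R 4.3.3) was fitted with a mean-variance trend to log2(TPM + 1) of the 4 libraries, without a replicate block and with no filter on low values, and p-values were adjusted by Benjamini-Hochberg over all genes, with a threshold of 0.05. TPM are not counts, so no count test was run. A fold on this scale understates the change of genes near or under 1 TPM. The interaction was fitted to the 8 wild-type libraries. On simulated data with 18227 genes, the fit of the 4 libraries recovered 78 of 100 genes shifted by 1 on the log2 scale and 100 of 100 shifted by 2, with 1 false call. Only genes with a mean level of about 10 TPM or more were shifted, far fewer than were called in the data. Genes of like level were drawn with a common spread. The figures therefore do not carry over to low genes or to genes that vary more than others of their level. The genes named are the 12 with the largest difference in each direction (adjusted p under 0.05, at least 10 TPM in both libraries of the higher line), the key genes marked in 42 lists of 1077 genes (918 measured, 30 in more than 1 list), up to 3 called members per list and direction, the ends and the largest gene of each run, and the 6 largest interactions; any other gene named was chosen after its values were seen. Chromosome Y genes are not named, and some other genes are not reported here. The members and the lists were chosen with earlier results of these data known. Alternatives were other pseudocounts, a filter at 1 TPM, median and quantile scaling, removal of mitochondrially encoded genes, no variance trend, more libraries in the fit, a replicate block, a 2-fold threshold and leaving out each library. Same-numbered libraries deviated together with r = 0.06 over 8763 genes, so the numbers were not taken as pairs. Searches for the palindromic HNF1 motif found 0 matches in promoters of tested genes, and the AP-1 motif TGANTCA was in 4.21% of them.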

Additional observations from a re-analysis of the deposited data

Results flagged for a closer look

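The line difference of 38 of the 149 genes named differed between wild-type cells in stem-cell-enriched and in normal culture, by the limma interaction over 8 libraries (adjusted p under 0.05), as it did for 1327 of all genes. Values here are the log2 H2023 minus A549 difference in stem-cell-enriched culture minus that in normal culture. The difference was lower in 33 of the 38 and higher in 5.

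Among interferon response genes the values were -5.05 for ISG15, -4.48 for MX1, -5.37 for IFI6, -3.48 for IFI44L, -6.32 for IFI27, -6.46 for IFITM1, -2.08 for IFITM3, -3.61 for BST2, -2.30 for IFIH1, -1.46 for OAS1 and -1.75 for OAS3. The class I genes HLA-B and HLA-C had -2.23 and -1.95. Secreted proteins of mucous epithelia and saliva had large values too, with -6.57 for CST1, -6.34 for TCN1, -6.44 for TFF1 and -5.78 for DMBT1.

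Of the epithelial, gut and liver genes, KRT19 had -2.66, DSP -1.25, CDH17 -4.60, AGR2 -2.32, MUC13 -2.06, ANXA10 -3.24 and CPS1 -2.02. Enzymes with lower values were DIO2 at -2.32, AKR1C1 at -1.16, ALDH2 at -1.43 and HK1 at -1.63. The remaining lower values were -1.79 for CRYBG1, -1.81 for PLK2, -2.94 for ERBB3, -1.68 for C1S and -1.08 for NES. Higher in stem-cell-enriched culture was the difference of OLFML3 (3.29), FGFR1 (1.81), CXCL1 (1.44), MKI67 (1.00) and TOP2A (1.09). Days in culture and culture changed together, and the part of either was not tested.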

How the results depend on the processing

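With 2 libraries per line, each gene's own spread rests on 2 residual degrees of freedom, which limma combines with the spread of other genes of like level. TPM keep no depth, so precision at low levels cannot be judged from reads. The count of 6259 genes stayed between 5777 and 7567 in all alternatives that used every library and tested against no difference; 5777 came from the replicate block, and same-numbered libraries share only a number. Against a 2-fold difference 387 genes passed, 257 higher in H2023 and 130 higher in A549. Leaving out 1 library at a time, where the other line alone gives the spread, left 0 to 2244 calls, 0 to 1446 higher in H2023 and 0 to 798 higher in A549. The interaction count of 1327 became 1308 with the replicate block, 2574 with all 16 libraries and 176 to 997 with 1 library left out. Genes on in H2023 alone fell from 43 to 1 with on set at 5 TPM and to 1 over 8 libraries per line, and genes on in A549 alone from 68 to 21 and 23. Of the 149 genes named, 125 were called, and all 125 kept their direction in every alternative. In the alternatives with every library, without the 2-fold test, 117 of them stayed called. The direction turned only for genes that were not called: median scaling gave -0.057 for KRT8 and -0.068 for MKI67, and quantile normalization 0.014 for NQO1 and -0.029 for MKI67. Leaving out 1 library at a time gave -0.092 to 0.22 for KRT8, -0.514 to 0.061 for CDH1, -1.312 to 0.365 for CDKN1A, -0.003 to 0.432 for MDM2, -0.672 to 0.243 for CD274, -0.02 to 0.122 for MKI67, -0.123 to 0.012 for TOP2A, -0.251 to 0.105 for IFI27, -0.109 to 0.827 for IFITM1 and -0.315 to 0.034 for TCN1; the cause was not tested.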
